A study of Mus musculus with 6 samples.

Results

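The purine salvage genes followed here in mouse kidney were Aprt, Xdh, Hprt, Pnp, Ada, Adk, Gda, Nt5e, Impdh1 and Impdh2. They were chosen by symbol, each found through its Ensembl identifier in the GENCODE M21 annotation of the GRCm38 assembly (mm10), and all 10 were present among the 55450 genes counted. Kidney mRNA came from 3 mice of the day 0 group and 3 mice of the day 21 group, all male, wild-type C57BL/6J mice bought at 7 weeks of age and kept for 1 week before the study. Day 21 mice received adenine at 0.16 g/kg together with potassium oxonate at 2.4 g/kg, given once daily by oral gavage. Day 0 mice were the controls and carry a treatment label of 20% PEG, a vehicle, whereas the label of the day 21 mice names no vehicle. The groups therefore also differed in age at collection and in daily handling, and possibly in vehicle, which cannot be told apart from the treatment.

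Cells obtain purine nucleotides either by building the ring from small precursors or by salvage, in which free bases and nucleosides are turned back into nucleotides. Not every gene followed here fits that definition, among them Xdh, Gda, Impdh1 and Impdh2. The name salvage genes is used in this report for the set as a whole. Adenine, the base given here, is salvaged by Aprt, while xanthine dehydrogenase, the product of Xdh, can oxidize it to the poorly soluble dihydroxyadenine and also carries out the last steps from hypoxanthine to uric acid. Potassium oxonate inhibits urate oxidase, the enzyme that in mice degrades uric acid further. In the kidney, adenosine made outside cells by Nt5e is also a local signal, and Ada and Adk remove it by separate routes.

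Total counts ran from 10963849 to 14256556 on day 0 and from 12662200 to 14333311 on day 21. Of the 55450 genes, 16592 had enough counts to be tested, the 10 salvage genes among them. Levels are given as normalized CPM, read counts divided by library sizes adjusted by the TMM method and put on one scale. A floor of 3 counts, which covers counting error only, equals 0.179 to 0.309 CPM depending on the library. The day 21 mice were compared with the day 0 mice by the quasi-likelihood test of edgeR, p-values were adjusted over all genes tested by the Benjamini-Hochberg method, and a gene was called a DEG, changed between the groups, at an adjusted p under 0.05 with a fold change over 1.5. Nothing in the labels says that libraries were made in batches. Mitochondrially encoded genes held between 9.39% and 9.86% of counts on day 0 and between 3.82% and 4.42% on day 21. Leaving these genes out altered no call among the salvage genes.

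Among the 10 salvage genes, Xdh and Impdh2 rose, Adk and Nt5e fell, and the other 6 were not called. Across all genes tested, 19.6% were called higher, 15.5% lower and 35.1% either way, so 2 higher and 2 lower of 10 lay near those shares. The groups did not overlap in 5 of the 10 genes (Xdh, Hprt, Impdh1 and Impdh2 higher, Adk lower), where this held for 57.1% of all genes tested. The median log2 fold change of the 10 genes was 0.26, against 0.03 over all genes tested. With 3 mice in each group, the smallest p that the two-sided exact permutation test allows is 0.1, and genes without overlap reached it.

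**Figure D1:**
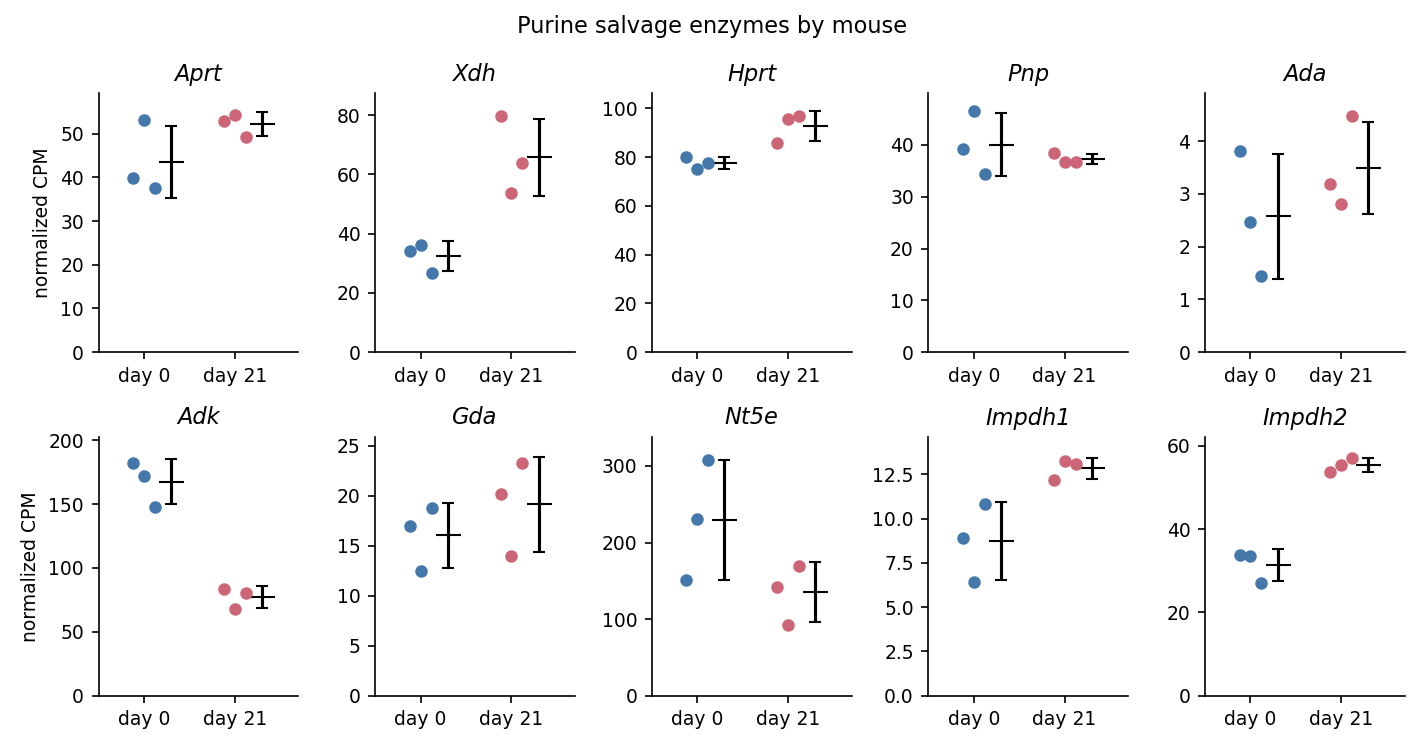
Normalized CPM of each of the 10 purine salvage genes in each of 3 day 0 mice (blue) and 3 day 21 mice (red), on linear axes that start at 0; the horizontal mark and bar beside each group give its mean and SD. The day 21 mice of Xdh (53.7 to 79.7 CPM) lie above all day 0 mice, those of Adk (67.8 to 83.4 CPM) below all day 0 mice, and the groups of Nt5e overlap.

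**Figure D2:**
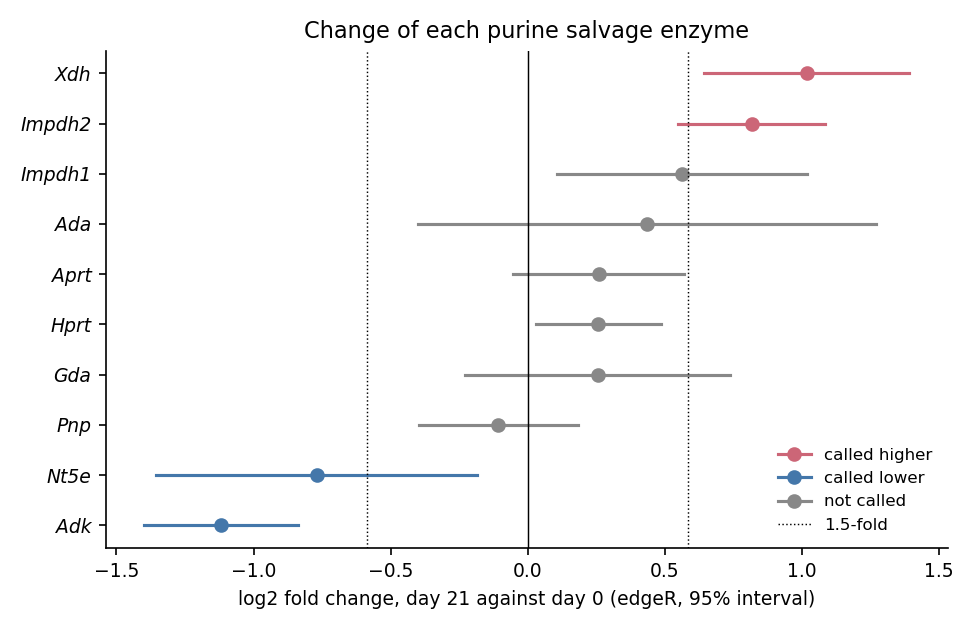
Log2 fold change of day 21 against day 0 for each salvage gene (points) with its 95% interval (lines) from edgeR, with dotted lines at a fold of 1.5 in either direction. Xdh (1.02) and Impdh2 (0.82) were called higher, Nt5e (-0.77) and Adk (-1.12) lower, and Impdh1 (0.56) fell just short of the fold threshold.

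Expression is first described for the enzymes that compete for adenine. Aprt, adenine phosphoribosyltransferase, joins adenine to a sugar phosphate to give AMP. The gene (ENSMUSG00000006589.8) lies on the minus strand at chr8:122574635-122576909. Its level was 39.9, 53.0 and 37.6 CPM in the day 0 mice and 52.9, 54.3 and 49.1 CPM in the day 21 mice. Group means were 43.5 ± 8.30 CPM and 52.1 ± 2.70 CPM (SD, n = 3 each). A single day 0 mouse reached the range of the day 21 mice, and the other two lay below it. The log2 fold change of 0.26 (SE 0.14, 95% interval -0.05 to 0.57) did not pass the test, with an adjusted p of 0.16 by edgeR. That interval extends to a fold of 1.49 and down to 0.963. The mouse that overlapped, day 0 replicate 2, weighed on this. Without it the log2 fold change was 0.43 with an adjusted p of 0.0153 by edgeR, still under the fold threshold, and without day 0 replicate 3 it was 0.14 (0.466).

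Xdh (ENSMUSG00000024066.9, minus strand, chr17:73883895-73950196), whose product oxidizes purine bases and does not salvage them, had the highest fold change of the set. Day 0 mice had 34.3, 36.3 and 26.6 CPM, and day 21 mice had 79.7, 53.7 and 63.7 CPM. The lowest day 21 mouse exceeded the highest day 0 mouse, although the day 21 mice were spread more widely, with means of 32.4 ± 5.11 and 65.7 ± 13.1 CPM (SD, n = 3 each). Xdh rose 2.02-fold (95% interval 1.56 to 2.62), a log2 fold change of 1.02 with an SE of 0.17 and an adjusted p of 7.38e-04 by edgeR. In its longest transcript, 11.5% of 50-base words also occur in other genes, the most in Ppp2r5a (3.60%).

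The ratio of Aprt to Xdh counts within a mouse needs no scaling between libraries. It was 1.16, 1.46 and 1.41 in the day 0 mice and 0.665, 1.01 and 0.771 in the day 21 mice. Every day 21 mouse thus had fewer Aprt counts per Xdh count than every day 0 mouse. On the log2 scale the mean ratio moved from 0.42 to -0.32, a difference of -0.74 or 0.600-fold (two-sided exact permutation p = 0.1, and 0.2 after Benjamini-Hochberg adjustment over 6 ratios). These are ratios of counts and are not corrected for transcript length.

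Hprt, hypoxanthine-guanine phosphoribosyltransferase, returns hypoxanthine and guanine to the nucleotides IMP and GMP. The gene (ENSMUSG00000025630.8) lies on the plus strand at chrX:52988137-53021659. Its level was 80.1, 75.3 and 77.5 CPM on day 0 and 85.8, 95.6 and 97.1 CPM on day 21. Although all 3 day 21 mice lay above the day 0 mice, the difference was small, with means of 77.7 ± 2.39 and 92.8 ± 6.11 CPM (SD, n = 3 each). The log2 fold change was 0.26 (SE 0.10, 95% interval 0.03 to 0.49), and Hprt was not called, with an adjusted p of 0.0624 by edgeR. Counts of Hprt per count of Xdh, the enzyme that oxidizes hypoxanthine, were 2.34, 2.08 and 2.91 on day 0 and 1.08, 1.78 and 1.52 on day 21. This ratio was lower in each day 21 mouse than in any day 0 mouse, and its log2 mean moved from 1.27 to 0.51, or 0.591-fold (exact permutation p = 0.1, adjusted 0.2). It shares its Xdh counts with the ratio of Aprt to Xdh, so the 2 ratios are not independent.

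Pnp, purine nucleoside phosphorylase, splits inosine and guanosine into base and sugar phosphate. The gene (ENSMUSG00000115338.2) is annotated on the plus strand at chr14:50931082-50965237. Its levels were 39.3, 46.5 and 34.4 CPM on day 0 and 38.4, 36.8 and 36.6 CPM on day 21, so the day 21 mice fell within the range of the day 0 mice. The log2 fold change was -0.11 (SE 0.13, 95% interval -0.40 to 0.18) with an adjusted p of 0.537 by edgeR, and its sign turned with library size alone as the scaling (0.28) and without day 0 replicate 2 (0.01). The annotation places other genes on the same bases. Gm49342, on the same strand, shares 718 exon bases with Pnp (18.0% of them) and had 0 counts in all mice. On the opposite strand, 356 of the 469 exon bases of Gm38316 lie in Pnp exons, and it had more counts than Pnp in every mouse, between 563 and 807 on day 0 and between 911 and 1212 on day 21. Pnp2, a neighbouring copy, holds 15.1% of the 50-base words of Pnp and had at most 12 counts. Whether the counting used strand is not given in the sources used here, so the reads of Pnp and Gm38316 may not be separable. With the 4 genes summed, a choice made after seeing the data, the log2 fold change was 0.03 with an adjusted p of 0.862. Gm38316, whose own log2 fold change was 0.10, made up the larger part of that sum, which therefore says little about Pnp itself.

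Gda, guanine deaminase, converts guanine to xanthine. The gene (ENSMUSG00000058624.13) lies on the minus strand at chr19:21391307-21473445. Its levels overlapped between the groups, with 16.9, 12.4 and 18.8 CPM on day 0 and 20.1, 14.0 and 23.2 CPM on day 21. The log2 fold change was 0.26 (SE 0.22, 95% interval -0.23 to 0.74) with an adjusted p of 0.366 by edgeR. It was not called without any single mouse, but the value fell to 0.10 without day 0 replicate 2 and to 0.09 without day 21 replicate 3 and was 0.44 without day 21 replicate 2. Relative to Pnp, which releases guanine, Gda counts stood at 0.431, 0.268 and 0.545 on day 0 and at 0.525, 0.379 and 0.634 on day 21, again with overlap (log2 difference 0.33, exact permutation p = 0.5, adjusted 0.6). Leaving out single mice moved this difference between 0.05, without day 0 replicate 2, and 0.56, without day 0 replicate 3.

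Of the enzymes of adenosine, Nt5e and Adk were called and Ada was not. Nt5e, the ectonucleotidase CD73, splits AMP to adenosine at the cell surface. The gene (ENSMUSG00000032420.8) lies on the plus strand at chr9:88327197-88372092. Day 0 mice had 151, 231 and 307 CPM and day 21 mice had 142, 92.3 and 170 CPM. The groups overlapped, since the day 21 mouse with 170 CPM exceeded the day 0 mouse with 151 CPM, and Nt5e had the widest relative spread among day 0 mice after Ada (230 ± 78.2 CPM against 135 ± 39.2 CPM, SD, n = 3 each). Nt5e was called lower, at a log2 fold change of -0.77 (0.587-fold, SE 0.26, 95% interval -1.36 to -0.18) with an adjusted p of 0.0357 by edgeR, while the exact permutation test gave p = 0.2. The call did not hold on leaving out some single mice, at times with the log2 fold change little altered. It was lost without day 0 replicate 2 (-0.77, adjusted p = 0.0848), without day 0 replicate 3 (-0.53, 0.114), without day 21 replicate 1 (-0.81, 0.0698) and without day 21 replicate 2 (-0.56, 0.117), by edgeR in each case. With other scalings it was lost as well, at -0.69 (adjusted p = 0.0524) with the upper quartile and at -0.39 (0.221) with library size alone.

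Adk, adenosine kinase, phosphorylates adenosine to AMP. The gene (ENSMUSG00000039197.10) spans chr14:21052574-21448569 on the plus strand. It fell in every day 21 mouse below every day 0 mouse, from 182, 172 and 148 CPM to 83.4, 67.8 and 80.4 CPM. Means were 168 ± 17.7 and 77.2 ± 8.31 CPM (SD, n = 3 each), and the gap between the groups was wider than the spread within either. The level on day 21 was 0.461-fold that on day 0 (95% interval 0.379 to 0.559), a log2 fold change of -1.12 with an SE of 0.13 and an adjusted p of 6.0e-05 by edgeR. Over 16 alternatives of processing the value ran from -1.22 to -0.73, and the call held in each.

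Ada, adenosine deaminase, converts adenosine to inosine. The gene (ENSMUSG00000017697.3) lies on the minus strand at chr2:163726584-163750239. It was the lowest of the 10, with 38, 30 and 14 counts on day 0 and 45, 47 and 73 counts on day 21. In CPM these were 3.81, 2.47 and 1.44 against 3.18, 2.80 and 4.47, and the groups overlapped. Ada was not called, with a log2 fold change of 0.44, an SE of 0.38 and a 95% interval from -0.40 to 1.27 (adjusted p = 0.373 by edgeR). Single mice moved the value, which was 0.79 without day 0 replicate 1, 0.15 without day 0 replicate 3 and 0.22 without day 21 replicate 3, and it was called in none of these.

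Counts of Ada per 1 count of Adk, which compares the deamination and the phosphorylation of adenosine at the transcript level, were 0.0209, 0.0144 and 0.00975 on day 0. On day 21 they were 0.0381, 0.0414 and 0.0556. The lowest day 21 mouse stood above the highest day 0 mouse. The log2 ratio rose from -6.10 to -4.48, or 3.07-fold, the largest shift among the 6 ratios, with exact permutation p = 0.1 and 0.2 after adjustment. By contrast, Nt5e relative to Ada, the making against the deamination of adenosine, ranged from 39.6 to 213 on day 0 and from 32.9 to 44.8 on day 21, and the groups overlapped (log2 difference -1.26, exact permutation p = 0.2, adjusted 0.3). The difference was -1.86 without day 0 replicate 1, when the groups no longer overlapped, and -0.66 without day 0 replicate 3.

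**Figure D3:**
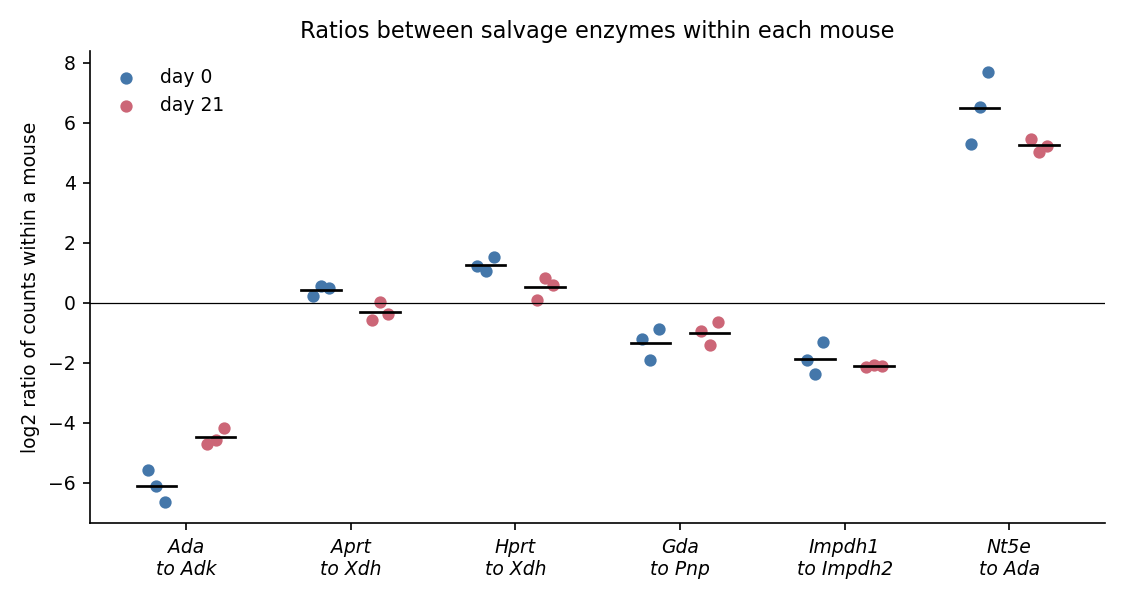
Log2 ratio of the counts of 2 salvage genes within each mouse (points; day 0 blue, day 21 red) with the group mean (black line), for 6 pairs. The groups are apart for Ada to Adk, where the mean moved from -6.10 to -4.48, and for Aprt to Xdh and Hprt to Xdh, where it moved from 0.42 to -0.32 and from 1.27 to 0.51, and they overlap for the other 3 pairs.

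Impdh1 and Impdh2 encode the isoforms of IMP dehydrogenase, which commits IMP to guanine nucleotides. Impdh2 (ENSMUSG00000062867.13, plus strand, chr9:108560286-108565584) had 33.7, 33.5 and 27.0 CPM on day 0 and 53.7, 55.3 and 57.1 CPM on day 21. Both groups were tight and far apart, at 31.4 ± 3.82 and 55.4 ± 1.68 CPM (SD, n = 3 each). Impdh2 rose 1.76-fold (95% interval 1.46 to 2.12), a log2 fold change of 0.82 with an SE of 0.12 and an adjusted p of 3.67e-04 by edgeR. Its reads may be shared with a pseudogene, Impdh2-ps, whose transcript holds 73.9% of the 50-base words of Impdh2. Impdh2-ps had between 103 and 149 counts on day 0 and between 220 and 280 on day 21, and its log2 fold change was 0.47 (adjusted p = 0.0249 by edgeR, under the fold threshold). Summed with its pseudogene, an alternative added after seeing the data, Impdh2 was still called, at 0.73 with an adjusted p of 4.89e-04.

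Impdh1 (ENSMUSG00000003500.13, minus strand, chr6:29200434-29216364) had 8.92, 6.43 and 10.8 CPM on day 0 and 12.2, 13.2 and 13.1 CPM on day 21. All day 21 mice lay above the day 0 mice, and the means were 8.72 ± 2.20 and 12.8 ± 0.591 CPM (SD, n = 3 each). The log2 fold change of 0.56 (1.48-fold, SE 0.21, 95% interval 0.11 to 1.02) reached an adjusted p of 0.0455 by edgeR but not the fold of 1.5, so the gene was not called. Leaving out single mice moved this p. Without day 0 replicate 3 the gene was called, at 0.73 with an adjusted p of 0.0146, whereas without any one of the other 5 mice the adjusted p by edgeR lay between 0.0680 and 0.126, with the lowest value (0.38) without day 0 replicate 2. It was 0.0515 with RLE scaling in edgeR and 0.0517 with DESeq2. Impdh1 counts per Impdh2 count overlapped between the groups, from 0.192 to 0.401 on day 0 and from 0.226 to 0.239 on day 21. The log2 difference was -0.24 (exact permutation p = 0.7, adjusted 0.7) and turned to 0.04 without day 0 replicate 3.

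Between genes, levels were compared per kilobase of annotated exon, as CPM per kilobase. Hprt was highest in both groups, at 60.2 ± 1.86 on day 0 and 72.0 ± 4.74 on day 21, and Ada lowest, at 1.29 ± 0.593 and 1.74 ± 0.437 (SD, n = 3 each). On day 0 the order after Hprt was Aprt (26.9), Nt5e (26.7), Adk (19.7), Impdh2 (10.2), Pnp (10.1), Xdh (3.53), Impdh1 (2.65) and Gda (2.57). Aprt overlapped with Nt5e and Nt5e with Adk, as did Impdh2 with Pnp, Xdh with Impdh1 and Impdh1 with Gda. On day 21 Impdh2 followed Aprt (32.3) at 18.0, before Nt5e (15.7), Pnp (9.37), Adk (9.05), Xdh (7.16), Impdh1 (3.90) and Gda (3.06). On that day Adk overlapped with Pnp above it and with Xdh below it, as did Impdh2 with Nt5e and Impdh1 with Gda, while on day 0 Adk had stood apart from Impdh2, the next in the order. The order depended on the length used. With the longest transcript in place of all exon bases, day 0 levels were 57.5 for Nt5e, 46.8 for Aprt and 39.5 for Adk, so that Nt5e came before Aprt and overlapped with Hprt. On day 21, Nt5e (33.7) then stood above Impdh2 (29.8) and Adk (18.2) above Pnp (12.7), the reverse of the order by exon bases. The longest Adk transcript (4243 bases) has 3 exons and is 1 of 10 annotated. Its length may thus not be that of the transcript most reads came from.

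RefSeq promoters of GRCm38.p6, from 250 bases before to 50 bases after a gene's start, were matched by symbol for 9 of the 10 genes, all but Xdh. They are shown for Adk and Impdh2, which moved in opposite directions, and for Aprt, which was not called, so that the letters can be set side by side. Each is the stretch outside annotated exons, on the strand of the gene, and for Adk both listed starts are given. Capitals mark matches on either strand to the GC box GGGCGG or to CCAAT. In the first Adk stretch a match to each of these overlaps with the other.
Aprt, chr8:122576910-122577157, minus strand: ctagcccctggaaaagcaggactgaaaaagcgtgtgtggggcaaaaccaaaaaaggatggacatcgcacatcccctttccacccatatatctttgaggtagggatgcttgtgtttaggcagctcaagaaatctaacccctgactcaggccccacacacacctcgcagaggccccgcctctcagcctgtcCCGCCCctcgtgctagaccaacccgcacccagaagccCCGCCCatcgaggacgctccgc
Adk, chr14:21052509-21052573, plus strand: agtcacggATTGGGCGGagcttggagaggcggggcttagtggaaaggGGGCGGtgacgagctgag
Adk, chr14:21075902-21076151, plus strand: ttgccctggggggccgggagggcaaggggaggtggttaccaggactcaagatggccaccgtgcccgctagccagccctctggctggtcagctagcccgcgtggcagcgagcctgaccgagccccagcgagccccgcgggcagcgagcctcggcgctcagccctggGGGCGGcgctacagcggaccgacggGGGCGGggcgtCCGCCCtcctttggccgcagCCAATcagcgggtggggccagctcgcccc
Impdh2, chr9:108560186-108560285, plus strand: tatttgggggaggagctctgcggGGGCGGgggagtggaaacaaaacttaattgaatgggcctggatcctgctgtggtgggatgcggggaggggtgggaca

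Over the full windows, every matched salvage gene apart from Gda held GGGCGG, which was found in 35.66% of 32851 promoters of the same length. CCAAT was present for Pnp, Ada, Adk, Gda and Impdh2 and in 37.41% of all promoters. Impdh2 alone of the 9 held the E-box CACGTG (7.15% of all promoters) and TATAAA (13.62%), and none held the cAMP response element TGACGTCA (1.79%). Impdh2, which rose, Adk and Nt5e, which fell, and Aprt, Hprt, Pnp, Ada and Impdh1, which were not called, therefore shared the GC box. These matches are of letters only.

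Markers of several kidney cell types also differed between the groups. All 8 proximal tubule markers fell, with a summed level from 11019 to 11702 CPM on day 0 and from 2296 to 2934 CPM on day 21. Their median log2 fold change was -1.99, and 4 of 5 markers of the loop and distal tubule fell. All 7 leukocyte markers tested (of 8) rose, from a sum of 134 to 162 CPM to one of 651 to 882 CPM, as did all 7 fibroblast markers (169 to 281 against 1105 to 2054 CPM) and all 5 of proliferation (8.02 to 14.4 against 119 to 166 CPM). Of 6 endothelial markers 3 fell, of 5 urothelial markers 1 fell, and all 5 red cell markers fell (227 to 524 against 33.8 to 77.5 CPM). None of these markers was at 0 in all mice. In bulk tissue, fewer cells of a type and less RNA per cell cannot be told apart. The part of these shifts in the levels of Adk, Nt5e, Xdh and Impdh2 was not tested.

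The wider purine network was described through 63 other genes in 7 lists, of which 56 could be tested. Of these, 11 were called higher and 12 lower, against 19.6% and 15.5% of all genes tested, and their median log2 fold change was -0.04. De novo synthesis, which builds the ring, had 1 of 8 genes called. This was Atic, the enzyme of the last steps to IMP, at 24.8, 26.0 and 30.2 CPM on day 0 and 47.3, 51.1 and 48.8 CPM on day 21 (log2 fold change 0.86, SE 0.12). Named after their values were seen, Prps2 (-0.53) and Paics (-0.43) passed the adjusted p but not the fold, and the list's median was -0.11.

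Interconversion of purine nucleotides had 3 of 12 tested genes called lower and none higher (13 listed, median -0.11). Ak4, a mitochondrial adenylate kinase, fell from 357, 536 and 416 CPM to 65.0, 45.5 and 66.9 CPM (log2 fold change -2.88, SE 0.19), and 11.3% of its 50-base words also occur in a pseudogene, Ak3l2-ps. Ak3 (-0.91, with 13.8% of its exon bases in exons of Cdc37l1 on the opposite strand) and Adssl1 (-0.88, adjusted p = 0.0396 by edgeR, groups overlapping) were the others.

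Nucleotidases and ectonucleotidases, the enzymes beside Nt5e that strip phosphate from nucleotides, went both ways, with 4 called higher and 4 lower of 12 tested (13 listed, median -0.16). Cytosolic nucleotidases were among those that rose. Nt5c1a went from 0.702, 0.577 and 0.618 CPM to 3.39, 3.16 and 3.49 CPM (log2 fold change 2.39), with Nt5c3b (1.13) and Nt5c (0.68) also higher. Nt5c3b shares 193 exon bases with Fkbp10 on the opposite strand, whose counts went from between 39 and 51 on day 0 to between 349 and 410 on day 21, and without a known strand setting their reads may not be separable. Entpd2 rose by 1.01, but 28.8% of its exon bases lie in exons of Npdc1 on the same strand. The genes called lower were Entpd5 (-1.38), Enpp3 (-0.92), Entpd8 (-0.88) and Alpl (-0.74), the last of these the tissue-nonspecific alkaline phosphatase.

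Other salvage genes and those that supply adenine or adenosine had 3 called higher and 1 lower of 6 tested (7 listed, median 0.53). Dck, deoxycytidine kinase, which also accepts purine deoxynucleosides, rose from 3.91, 5.36 and 3.81 CPM to 20.8, 16.4 and 18.1 CPM (log2 fold change 2.07, SE 0.20). Lacc1 (1.52) and Mtap (0.65), which releases adenine from methylthioadenosine, also rose. Ahcy, which releases adenosine from S-adenosylhomocysteine, fell by 1.71 on the log2 scale, from 327, 461 and 380 CPM to 128, 109 and 121 CPM. Of its 50-base words, 77.0% also occur in other genes, the most in Gm4737 (74.1%), so its level is uncertain.

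Of the molybdenum oxidases, their cofactor genes and the genes of urate breakdown, 1 was called higher and 2 lower of 9 tested (10 listed, median -0.05). Uox, urate oxidase, the enzyme that oxonate inhibits, had 0 counts in each day 0 mouse and 27, 22 and 23 counts in the day 21 mice. Against a floor of 3 counts per library it was at least 5.40-fold higher (adjusted p = 4.64e-04 by edgeR), at a level of 1.31 to 1.91 CPM. It passed the count filter only through the day 21 mice, so this p is no separate support for the rise. Uox is best known as a liver enzyme, and of 5 liver markers, 4 of them tested, Fgb rose (3.58), Alb (-2.82) and Apob (-1.41) fell and Ttr (0.05) was not called, with a sum of 264 to 483 CPM on day 0 and 241 to 305 CPM on day 21. Their part in the Uox counts was not tested. Gphn (-0.81) and Mocs2 (-0.66), which serve the molybdenum cofactor that Xdh needs, fell, whereas Mocs1 (-0.33) passed the adjusted p (0.0440 by edgeR) without the fold. Aox1 (-0.05), Aox3 (0.09), Urah (-0.07), Mocos (-0.04) and Mocs3 (0.14) were not called, and Urad had 0 counts in all mice.

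Among transporters of nucleosides and nucleobases, 1 was called higher and 2 lower of 6 tested (8 listed, median 0.08). Slc28a1, a concentrative nucleoside transporter, fell from 15.6, 15.1 and 11.0 CPM to 4.67, 4.06 and 3.92 CPM (log2 fold change -1.73), and Slc29a3, an equilibrative one, fell by 0.67. Slc28a2, which prefers purine nucleosides, was called higher at 1.20, with an adjusted p of 0.0491 by edgeR that lay next to the threshold and levels of 0.501 to 0.989 CPM on day 0 and 1.29 to 2.03 CPM on day 21. Of its 50-base words, 39.8% also occur in Gm14085, which had 0 counts in all mice. Slc29a1 (0.28), Slc29a2 (-0.11) and the purine base transporter Slc43a3 (0.49, adjusted p = 0.0465 by edgeR, groups overlapping) were not called. Slc29a4 and Slc28a3 were too low to be tested.

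Of the 4 adenosine receptors, 3 could be tested and Adora2b, the low-affinity receptor, was the 1 called, with a list median of 0.32. It rose from 2.21, 1.81 and 3.30 CPM to 6.57, 6.86 and 7.66 CPM, a log2 fold change of 1.54 with an SE of 0.28 and an adjusted p of 0.00124 by edgeR. Adora1 (-0.49) and Adora2a (0.32) overlapped between the groups and were not called, and 20.1% of the exon bases of Adora1 lie in exons of Mybph on the opposite strand. Adora3 was too low to be tested.

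**Figure D4:**
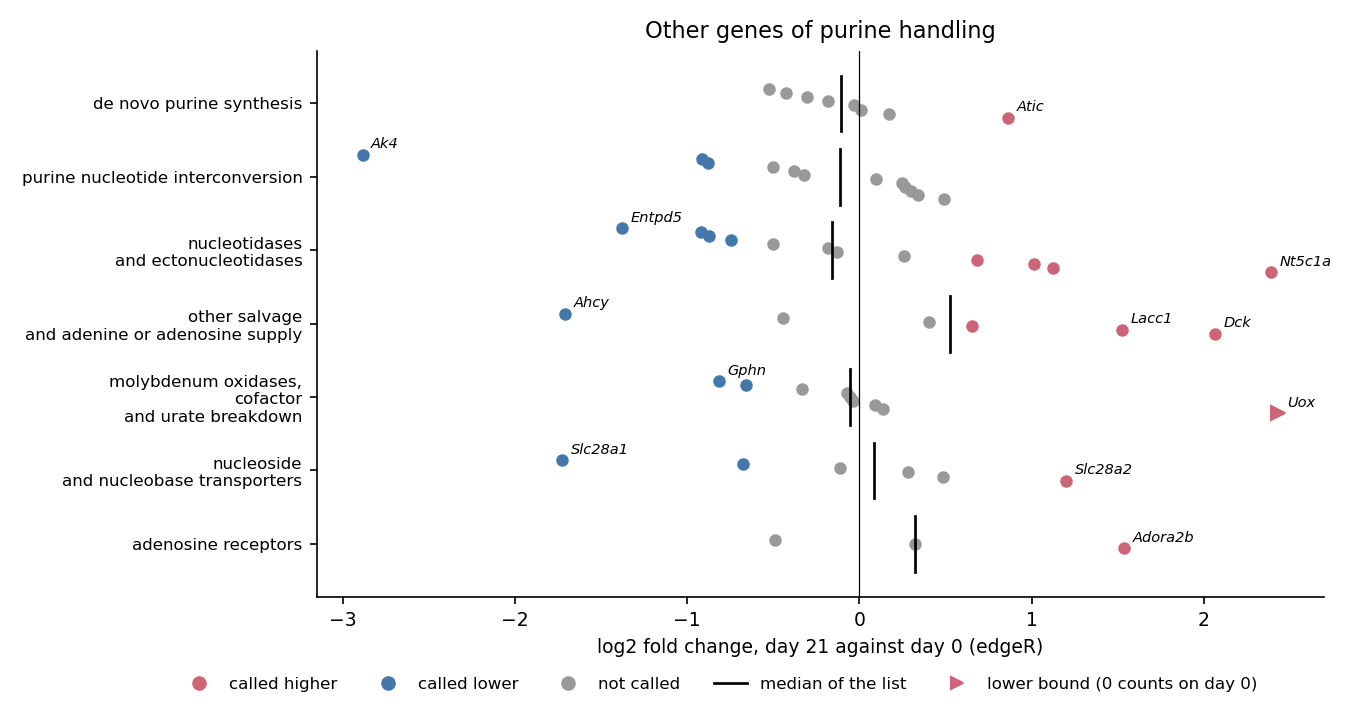
Log2 fold change of day 21 against day 0 for the 56 other purine genes tested (1 point each), by list, with the median of each list (black line); points are coloured by call, and the triangle for Uox stands at its lower bound of 5.40-fold because all day 0 mice had 0 counts. Called genes lie on both sides of 0, with Ak4 (-2.88) the lowest and Nt5c1a (2.39) the highest of those with counts on day 0.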

How the data were processed

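Total RNA of kidney was sequenced as paired-end reads of 150 bases, and the authors deposited raw read counts per gene for each of the 6 mice, without normalization. The submitters' processing notes name TopHat and mm10; the counting program and its strand setting are not given in the sources used here. Each column was mapped to a mouse by its label. All 55450 identifiers matched GENCODE M21. In R 4.3.3, genes were filtered with filterByExpr (minimum count 10, minimum total 15), scaled by TMM and tested with the quasi-likelihood test of edgeR 4.0.16. DESeq2 1.42.0 and limma 3.58.1 (voom) were alternatives, as were other scalings, filters and thresholds, a replicate block, and leaving out a mouse or the 20 highest genes. Log2 ratios within a mouse used a pseudocount of 0.5 counts and an exact permutation test. The DEG thresholds are those of the study's methods. Shared sequence was counted as 50-base words of the longest transcript found in another gene. Figures were drawn with matplotlib 3.10.9 in Python 3.11.15.

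The salvage genes, the lists and the 6 ratios were chosen with earlier results of these data known. All salvage genes are named. Of the other lists, up to 4 called genes with the largest change in each direction are named, and every gene of the lists of molybdenum oxidases, transporters and receptors. The mice are separate animals, 3 of the 6 in each group of the study, so p-values rest on the spread between 3 mice a group. Those of edgeR also draw on the spread of the other genes tested. No 2 libraries of a group were duplicates (chi-square per gene between 7.19 and 24.0).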

Additional observations from a re-analysis of the deposited data

How the results depend on the processing

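Xdh, Impdh2 and Adk kept their direction and their call under each of the other scalings, filters and tools and without each mouse, between 0.86 and 1.40, between 0.70 and 1.21 and between -1.22 and -0.73 (log2 fold changes). Over all genes the median was 0.03 with TMM, -0.00081 with RLE, 0.12 with the upper quartile and 0.42 with library size alone, and that of the salvage genes 0.26, 0.23, 0.35 and 0.65. The share of DEGs that were higher went from 55.8% to 81.7% of 7320 with library size alone. That scaling gave Aprt 0.65, Hprt 0.65, Gda 0.64 and Impdh1 0.95, all called, Nt5e -0.39, not called, and Pnp 0.28, with 6 salvage genes higher and 1 lower and 20 other purine genes higher and 4 lower. Over all 16592 genes tested, library size alone called 5982 higher and 1338 lower. With the upper quartile Nt5e was -0.69, not called, and Impdh1 0.65, called, so that 1 salvage gene was lower, where 3692 of all 16592 genes were called higher and 2168 lower. Impdh1 was also called with a mean of at least 50 counts (0.59) and with limma-voom (0.61). Pnp summed with its overlapping genes gave 0.027. At any fold, an adjusted p under 0.05 gave 3 salvage genes higher and 2 lower, and 14 other purine genes higher and 20 lower in place of 11 and 12. Over all 16592 genes tested, that threshold called 3972 higher and 3597 lower. The stricter thresholds (adjusted p under 0.01, fold over 2) left 1 salvage gene higher (Xdh, with Impdh2 under the fold) and 1 lower (Adk), 7 other purine genes higher and 4 lower, and 3172 DEGs in place of 5821. Of those 3172 DEGs, 1918 were higher and 1254 lower. The cause was not tested.

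With each mouse left out in turn, Nt5e ran from -1.02 to -0.53, Aprt from 0.14 to 0.43 and Ada from 0.15 to 0.79. Gda ran from 0.09 to 0.44, Impdh1 from 0.38 to 0.73 and Pnp from -0.224 to 0.0145. The log2 ratio of Impdh1 to Impdh2 ran from -0.494 to 0.037 and that of Nt5e to Ada from -1.86 to -0.66. In these fits 1 to 2 salvage genes were called lower, where 2283 to 2708 of all 16816 to 17225 genes tested were called lower. To look for pairing, the log2 CPM of each gene tested was taken as its deviation from the mean of its group. These deviations, not the levels themselves, were correlated between a day 0 and a day 21 mouse. The correlations were -0.019, 0.165 and 0.0896 between mice of equal replicate number. They ran from -0.181 to 0.116 between mice of unlike number. The mice are separate animals, which the study assigned to groups at random, and it describes no pairing. With 3 mice a group, the correlations alone cannot decide whether mice of equal replicate number shared any other effect. With a replicate block 5758 genes were DEGs, and Nt5e was at -0.76 and Impdh1 at 0.58, with no call among the salvage genes altered.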
